A study of Mus musculus with 18 samples.

Results

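The 10 genes described here encode integrin chains carried by natural killer (NK) cells: the alpha chains Itgam, Itgal, Itgax, Itga1, Itga2, Itga4 and Itgae and the beta chains Itgb1, Itgb2 and Itgb7. They were chosen by name, and each was represented by the probe set that carries its symbol alone. All 10 had exactly 1 such probe set, out of 35399 probe sets on the array and 19938 genes with a probe set of their own. Expression was measured on 18 arrays of NK cells from spleens of 6-week-old ICR mice of either sex. The genotypes were Runx3 +/+, called WT for wild type, and Runx3 -/-, called KO for knockout and lacking the gene in all cells, Runx3 being a transcription factor of the Runt family. All mice, WT included, had received 2 injections, 2 days apart, of interleukin-15 complexed with its receptor alpha chain, which activates and expands NK cells, so no group shows resting NK cells. From the NKp46+ fraction 3 subsets were collected by sorting: CD27+CD11b- (called CD27 here, the least mature), CD27+CD11b+ (DP, double positive) and CD27-CD11b+ (called CD11b). Each subset and genotype had 3 arrays. The study's design text names the third gate CD11c, whereas its sample titles and sorting protocol name it CD11b, and CD11b was used here. Itgam encodes CD11b and Itgax encodes CD11c.

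Integrins are cell surface receptors made of 1 alpha and 1 beta chain, which bind matrix proteins or ligands on other cells and signal through cytoskeletal adaptors such as talin and kindlin. The beta2 chain pairs with the alpha chains of Itgal (LFA-1, which holds the contact between an NK cell and its target), Itgam (Mac-1) and Itgax. The beta1 chain pairs with the collagen-binding chains of Itga1 (CD49a) and Itga2 (CD49b, recognised by the DX5 antibody used to identify mouse NK cells) and with the chain of Itga4. The beta7 chain pairs with the chains of Itga4, giving a receptor for the gut addressin MAdCAM-1, and of Itgae (CD103), giving a receptor for E-cadherin. The acquisition of CD11b marks NK cell maturation, and CD49a and CD103 are known from tissue-resident lymphocytes.

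Values are on the log2 scale, so that a difference of 1 is a doubling, and ran from 3.91 to 14.96 over all arrays. The number of arrays limits the precision, and the median SD within groups was 0.14 over probe sets. Runx3 was lower in KO cells of each subset, by 1.40- to 1.55-fold, and its KO and WT arrays did not overlap. The position of its probe set relative to the deletion was not determined, which makes this a weak check of the genotype labels. Ncr1, which encodes the NKp46 used in the sort, lay between 13.45 and 13.81 on all arrays. Of the KO arrays, those of replicate 3 stood apart. Summed over marker lists, in log2 of the summed linear signal, dendritic cell and MHC class II genes read 9.92, 10.34 and 13.66 on the CD27, DP and CD11b arrays of KO replicate 3, against 8.54 to 8.85 on WT arrays. In CD11b cells KO replicate 1 read 9.54 for these genes, also above all WT arrays. The 9 neutrophil genes summed to at most 9.19 and the 9 macrophage and monocyte genes to at most 10.06 on WT arrays. These sums were 13.35 and 12.59 on the CD11b array of KO replicate 3. Lyz2, a macrophage gene, read 12.27 there, 7.96 in CD11b cells of KO replicate 1 and 5.32 or less in WT. B cell genes (6 measured) read 8.62 to 9.39 on the arrays of KO replicate 3, against 7.73 to 8.77 on WT arrays. Genes of erythroid cells and platelets (5 measured) lay between 7.51 and 7.94 on all 18 arrays. Myeloid cells also carry Itgam, Itgax and Itgb2, so the genotype differences of these genes are given without KO replicate 3 as well.

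**Figure D1:**
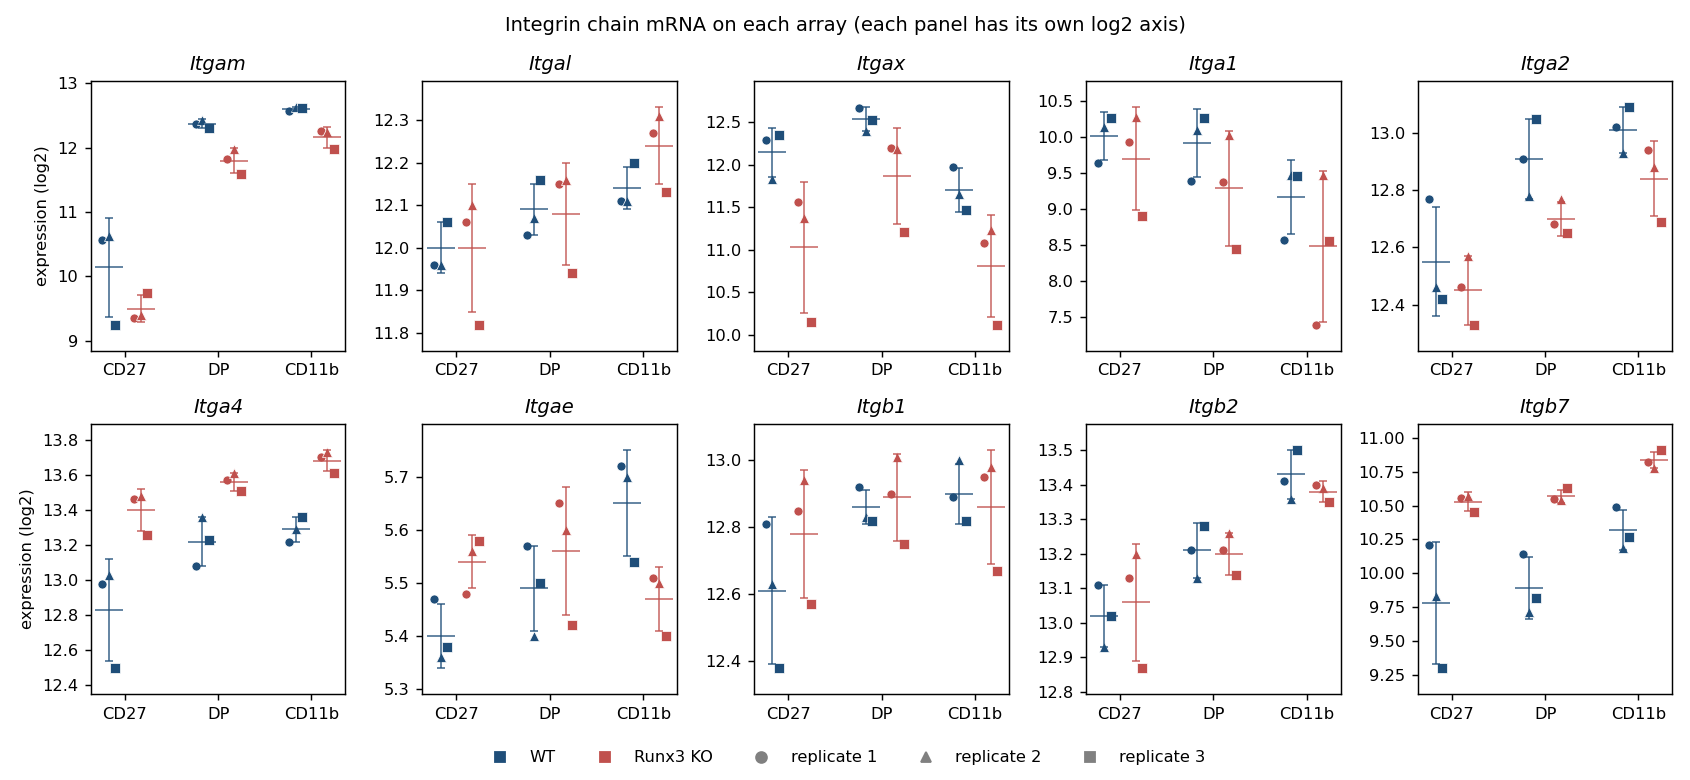
Expression (log2, y axis, scaled separately for each gene) of the 10 integrin chains on each array, by sorted subset (x axis). Points are arrays, with the shape giving the replicate number, and bars are the mean and SD of 3 arrays. Itgb7 and Itga4 lie higher and Itgax lower on the 3 KO arrays than on the 3 WT arrays of every subset.

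The comparison of KO with WT cells asked which integrin chains differ in the absence of Runx3. Averaged over the 3 subsets, Itgb7 and Itga4 rose in KO cells by 1.57-fold and 1.35-fold, and Itgax and Itgam fell by 1.86-fold and 1.47-fold. The other 6 chains did not pass the test. These were Itgal and Itgb2 of LFA-1, Itgb1, its partners Itga1 and Itga2, and Itgae. The test was limma's moderated test with Benjamini-Hochberg adjustment over all probe sets, an adjusted p under 0.05 being called passing. In the average over subsets 8.08% of all probe sets passed (2.80% with the KO mean above and 5.28% with it below), against 4 of these 10 genes (2 higher and 2 lower). Apart from Itgae, the genes lay at percentiles 81.1 to 99.8 of mean signal, whereas all probe sets include many of low signal. With only the probe sets whose mean exceeded the median, 3124 passed, against 2862 of all 35399, and 4 of 9 chains. The share above the median was thus higher than 8.08%. The median difference was 0 over the 10 genes and -0.016 over all probe sets. In single subsets 1 gene passed in CD27 cells, Itga4, and 0 passed in DP and CD11b cells, against 0.907%, 0.395% and 1.29% of all probe sets. By limma, unadjusted p was under 0.05 for 4, 3 and 4 of the 10 genes in the 3 subsets. The average counts the 3 arrays with one replicate number as independent, although the KO arrays with one number deviated together. With the 3 arrays of a number averaged first, and 3 samples compared with 3, 0 of the 10 genes passed, against 0.201% of all probe sets. The arrays measure pooled RNA of sorted cells, so fewer cells that express a gene and less of its RNA per cell cannot be told apart.

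**Figure D2:**
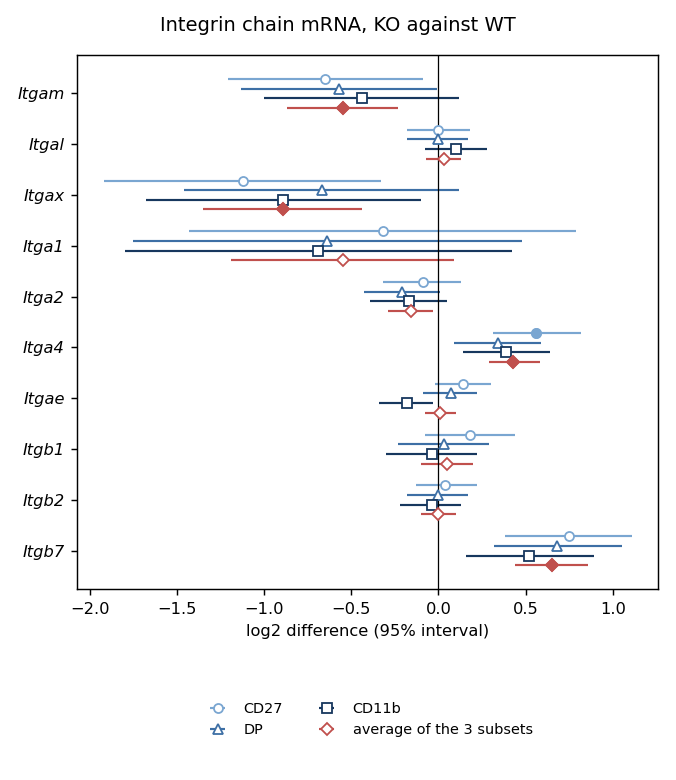
KO minus WT difference (log2, x axis) of each integrin chain (y axis) in the 3 subsets and in their average, with 95% intervals from limma. Filled symbols passed at an adjusted p under 0.05: Itga4 in CD27 cells, and Itgb7, Itga4, Itgax and Itgam in the average.

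Itgb7, the beta chain of the gut-homing integrin and of CD103, was higher in KO cells throughout. In CD27 cells its WT arrays read 10.21, 9.83 and 9.30 and its KO arrays 10.56, 10.57 and 10.45. The DP arrays read 10.14, 9.71 and 9.82 (WT) and 10.55, 10.54 and 10.63 (KO). The CD11b arrays read 10.49, 10.19 and 10.27 (WT) and 10.82, 10.78 and 10.91 (KO). All KO arrays thus lay above all WT arrays of the same subset, and the KO arrays spread less (SD 0.05 to 0.07) than the WT arrays (SD 0.15 to 0.45). The KO-WT difference was 0.75 ± 0.17 in CD27 (SE, adjusted p = 0.0572 by limma), 0.68 ± 0.17 in DP (adjusted p = 0.127) and 0.52 ± 0.17 in CD11b cells (adjusted p = 0.183). It was 0.65 in the average (1.57-fold higher, 95% interval 1.36 to 1.82, limma adjusted p = 0.00117, 3 arrays in each of 6 groups). The CD27 difference passed without CD27 WT replicate 1, the highest WT array, at 0.96 (adjusted p = 0.00743). Under the 14 alternatives run for the CD27 difference, it ran from 0.51 to 0.96 and the limma adjusted p from 0.00237 to 0.331. It did not pass in 9 of the 14.

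Itga4, the alpha chain shared by the beta1 and beta7 receptors, followed the same order of genotypes. It read 12.98, 13.03 and 12.50 on the WT and 13.46, 13.48 and 13.26 on the KO arrays of CD27 cells. The DP arrays read 13.08, 13.36 and 13.23 in WT and 13.57, 13.61 and 13.51 in KO. The CD11b arrays read 13.22, 13.29 and 13.36 in WT and 13.70, 13.73 and 13.61 in KO. Again no KO array overlapped the WT arrays of its subset. The difference was 0.56 ± 0.12 in CD27 cells (1.48-fold higher, 95% interval 1.24 to 1.76, limma adjusted p = 0.0389). It was 0.34 ± 0.12 in DP (adjusted p = 0.339), 0.39 ± 0.12 in CD11b cells (adjusted p = 0.143) and 0.43 in the average (1.35-fold, 1.22 to 1.49, adjusted p = 0.00153). WT replicate 3 was the lowest array in CD27 cells, and without it the CD27 difference was 0.40 and did not pass (adjusted p = 0.07). It did not pass either without CD27 KO replicate 1 (adjusted p = 0.128) or CD27 KO replicate 2 (0.121). Itga4 and Itgb7 kept their call in the average under 25 of 26 alternatives each, the exception being the comparison of 3 samples with 3 (limma adjusted p = 0.116 and 0.153). There the KO samples still did not overlap the WT samples: Itgb7 averaged 10.28, 9.91 and 9.80 in the WT and 10.64, 10.63 and 10.66 in the KO samples. Itga4 averaged 13.09, 13.22 and 13.03 in the WT and 13.58, 13.61 and 13.46 in the KO samples.

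Itgax, which encodes CD11c, moved the other way. The CD27 arrays read 12.29, 11.83 and 12.35 in WT against 11.56, 11.37 and 10.15 in KO. The DP arrays read 12.67, 12.40 and 12.53 against 12.20, 12.19 and 11.21, and the CD11b arrays 11.98, 11.66 and 11.47 against 11.08, 11.23 and 10.12. In each subset every KO array was lower than every WT array, and KO replicate 3 was the lowest array each time. The difference was -1.12 ± 0.37 in CD27 (limma adjusted p = 0.21), -0.67 ± 0.37 in DP (adjusted p = 0.6) and -0.89 ± 0.37 in CD11b cells (adjusted p = 0.315). The average was -0.89 (1.86-fold lower, 95% interval 1.35 to 2.55, adjusted p = 0.0196). Without the 3 arrays of KO replicate 3 the average was -0.52 and still passed (adjusted p = 0.00842). KO replicate 3, a single sample, also had the highest summed level of dendritic cell and MHC class II genes in each subset, and the part of such cells in the Itgax result was not tested. The arrays also differed in Xist, the RNA of the inactive X chromosome of females, which was low for KO replicates 1 and 2 and for WT replicate 1 and high on the remaining arrays. The Y-linked gene Eif2s3y read 11.02 to 11.15 where Xist was low. Where Xist was high, Eif2s3y read 6.83 to 9.10 in KO replicate 3, 6.44 to 8.12 in WT replicate 2 and 4.86 to 5.53 in WT replicate 3. Xist is therefore not a clean label of sex here, and a mixture of sexes was not tested. With Xist as a covariate, the differences in CD27 and CD11b cells were -1.37 (limma adjusted p = 0.00976) and -1.10 (0.0217) and passed. Within KO only replicate 3 had high Xist, and within WT only replicate 1 had low Xist. The covariate therefore cannot be told apart from other traits of these samples.

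Itgam, whose protein CD11b set the gates, is compared here only between genotypes within a gate. The DP arrays read 12.37, 12.43 and 12.30 in WT against 11.83, 11.98 and 11.59 in KO. The CD11b arrays read 12.57, 12.63 and 12.61 against 12.26, 12.25 and 11.98. The genotypes did not overlap in these subsets. In CD27 cells, gated as negative for CD11b, the WT arrays read 10.56, 10.62 and 9.25 and the KO arrays 9.35, 9.40 and 9.74, so that WT replicate 3 lay below every KO array. The difference was -0.65 in CD27, -0.57 in DP and -0.44 in CD11b cells, each ± 0.26 (limma adjusted p = 0.335, 0.51 and 0.516). It was -0.55 in the average (1.47-fold lower, 95% interval 1.17 to 1.83, adjusted p = 0.0365). This call was lost under 17 of 26 alternatives (adjusted p up to 0.229), among them leaving out KO replicate 3 (-0.53, adjusted p = 0.108). Without CD27 WT replicate 3 the CD27 difference was -1.09 and passed (limma adjusted p = 0.00139), and without CD27 WT replicate 2 it did not (0.75). Under the 14 alternatives run for this difference it ran from -1.09 to -0.41, and 12 of them did not pass.

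Non-overlap of KO and WT arrays in the same direction in all 3 subsets was seen for 3 of the 10 genes, Itgb7, Itga4 and Itgax, and for 2.88% of all probe sets. Counted in either direction within 1 subset, the genotypes did not overlap for 4, 5 and 5 of the 10 genes in CD27, DP and CD11b cells, against 16.4%, 14.6% and 18.7% of all probe sets. The difference of the KO-WT differences between CD11b and CD27 cells was tested as an interaction, and 0 of the 10 genes passed (limma, lowest adjusted p = 0.595, 1 gene with an unadjusted p under 0.05), against 0.0367% of all probe sets. By the F test over the 3 subsets 0 of 10 passed as well, against 0.0113% of probe sets, and unadjusted p was under 0.05 for Itgae alone. The data therefore do not show a KO-WT difference of any of these chains to be unequal among subsets. The intervals were wide: the interaction of Itgax was 0.23 with a 95% interval of -0.89 to 1.35, that of Itgb7 -0.22 (-0.74 to 0.29) and that of Itga4 -0.18 (-0.53 to 0.18).

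The stretches of 250 bases upstream of the annotated start of the 4 genes that passed in the average are shown because Runx proteins bind DNA at a short core motif. They come from RefSeq (build GRCm38.p6) and read 5′ to 3′ on the gene's strand. Capitals mark TGTGGT or TGCGGT on either strand, ACCACA and ACCGCA being their reverse complements. The windows are chr15:102231936-102232185 on the minus strand for Itgb7, chr2:79255176-79255425 on the plus strand for Itga4, chr7:128129300-128129549 on the plus strand for Itgax and chr7:128062390-128062639 on the plus strand for Itgam. That of Itgb7 lies inside the gene's full extent, chr15:102215994-102233405, and that of Itgax runs into its gene's extent, which begins at position 128129526, so that both windows precede an inner start.
Itgb7: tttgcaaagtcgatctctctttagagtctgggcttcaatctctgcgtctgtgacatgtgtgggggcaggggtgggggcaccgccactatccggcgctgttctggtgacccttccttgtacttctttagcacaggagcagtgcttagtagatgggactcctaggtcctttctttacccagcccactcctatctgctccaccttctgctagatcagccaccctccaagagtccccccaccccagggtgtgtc
Itga4: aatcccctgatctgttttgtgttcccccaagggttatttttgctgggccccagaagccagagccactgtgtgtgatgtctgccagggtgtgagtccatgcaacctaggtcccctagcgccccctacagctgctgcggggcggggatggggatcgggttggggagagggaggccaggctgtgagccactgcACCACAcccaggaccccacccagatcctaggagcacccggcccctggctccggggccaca
Itgax: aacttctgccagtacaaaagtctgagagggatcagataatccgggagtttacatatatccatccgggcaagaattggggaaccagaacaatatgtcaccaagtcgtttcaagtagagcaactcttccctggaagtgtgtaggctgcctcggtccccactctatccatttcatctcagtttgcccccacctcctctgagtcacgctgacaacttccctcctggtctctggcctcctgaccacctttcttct
Itgam: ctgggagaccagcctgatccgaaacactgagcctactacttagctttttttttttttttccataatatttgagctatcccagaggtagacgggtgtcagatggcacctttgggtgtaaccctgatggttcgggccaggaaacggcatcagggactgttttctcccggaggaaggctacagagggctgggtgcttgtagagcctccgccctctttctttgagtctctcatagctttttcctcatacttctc
Of these 4 windows that of Itga4 held the motif, once, as ACCACA from 60 to 55 bases before the start. Of the 10 genes 7 had a window in the table, and 1 of the 7 held the motif, against 18.6% of all 32851 windows of this length. A match is a run of letters and not a measured site, and its absence concerns this window only.

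The remaining 6 chains did not pass between genotypes in any subset or in the average. Itgal, the alpha chain of LFA-1, lay between 11.82 and 12.31 on all 18 arrays. Its KO-WT difference in the average was 0.03 with a 95% interval of -0.07 to 0.13 (limma adjusted p = 0.782). Its partner Itgb2 lay between 12.87 and 13.50, and the average difference was 0.00 (-0.10 to 0.10, adjusted p = 0.989). These intervals count the arrays of one replicate number as independent. Without KO replicate 3 the differences were 0.10 for Itgal (adjusted p = 0.117) and 0.05 for Itgb2 (0.646). In the CD11b array of KO replicate 3, where myeloid genes were highest, Itgb2 read 13.35, against 13.40 and 13.39 on the other KO arrays.

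Itgb1 lay between 12.38 and 13.01 and differed by 0.05 in the average (-0.10 to 0.20, limma adjusted p = 0.739). Itga2, the DX5 antigen chain, was lower by 0.16 in the average (95% interval of the difference -0.29 to -0.03, adjusted p = 0.125) and passed only with Xist as a covariate (-0.20, adjusted p = 0.0254). Its genotypes did not overlap in DP cells, at 12.91, 12.78 and 13.05 in WT and 12.68, 12.77 and 12.65 in KO, and overlapped in CD27 and CD11b cells.

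Itga1, the CD49a chain, had the largest spread within a group of the 10 genes (SD 1.05 in KO CD11b cells). The CD27 arrays read 9.64, 10.15 and 10.27 in WT against 9.93, 10.28 and 8.90 in KO. The DP arrays read 9.39, 10.10 and 10.27 against 9.38, 10.03 and 8.44, and the CD11b arrays 8.57, 9.47 and 9.46 against 7.39, 9.48 and 8.56. KO replicate 2 lay within or just above the WT arrays in each subset and KO replicate 3 below them, in CD11b cells by a narrow margin, so that the genotypes overlapped throughout. The average difference of -0.55 had an interval of -1.19 to 0.09 and did not pass (limma adjusted p = 0.33), and was -0.29 without KO replicate 3 (0.711). CD49a is a marker of ILC1, innate lymphocytes close to NK cells, and 8 other markers of such cells were listed. Of these 5 rose in KO cells in the average and 0 fell, against the 2.80% and 5.28% of all probe sets given above, with a median of 0.66. This average too counts the arrays of one number as independent, and the cell type markers were not compared as 3 samples with 3. In CD27 cells 0 of the 8 passed by limma (median 0.22), and their summed log2 level was 12.65 to 13.43 on WT and 13.11 to 13.22 on KO arrays. Their summed log2 level was 10.69 to 11.10 on KO CD11b arrays and 9.63 to 9.95 on WT CD11b arrays.

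Itgae, the alpha chain of CD103, stayed between 5.36 and 5.72 on all arrays, and its mean over arrays lay at percentile 36.6 of all probe sets. Its KO-WT difference was 0.14 in CD27, 0.07 in DP and -0.18 in CD11b cells, none of which passed (limma adjusted p = 0.505, 0.815 and 0.296), and 0.01 in the average (-0.08 to 0.10). Its genotypes did not overlap in CD27 cells, where KO was higher, and in CD11b cells, where KO was lower.

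The comparison of subsets asked how integrin chains change from immature to mature NK cells. In WT cells Itgb2, Itga2 and Itga4 rose from the CD27 to the CD11b subset, by 1.32-fold, 1.38-fold and 1.37-fold. Of the 9 chains other than the gate marker Itgam these 3 rose, 0 fell and 6 did not pass. Of all probe sets 5.0% passed in this comparison, with 2.88% higher in CD11b cells. With only the probe sets whose mean exceeded the median, 1639 passed, against 1771 of all, and 3 of 8 chains. The WT arrays of these 2 subsets with one replicate number deviated together, and with the replicate block 7 of the 9 chains passed, 6 higher and 1 lower, against 10.9% of all probe sets. The block added Itgb7 (0.54, limma adjusted p = 0.0162), Itgb1 (0.29, 0.0256) and Itgae (0.25, 0.0392), which were higher, and Itgax (-0.45, 0.0434), which was lower. The median difference was 0.29 over the 9 genes and 0.02 over all probe sets. Arrays of the 2 subsets did not overlap for 7 of the 9 genes, and for 28.3% of all probe sets. Itgam itself is a description of the sort. Its means in the order CD27, DP, CD11b were 10.14 ± 0.77 (SD, n = 3), 12.37 ± 0.07 and 12.60 ± 0.03 for WT, and 9.50 ± 0.21, 11.80 ± 0.19 and 12.16 ± 0.16 for KO.

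For Itgb2 the WT arrays read 13.11, 12.93 and 13.02 (CD27), 13.21, 13.13 and 13.28 (DP) and 13.41, 13.36 and 13.50 (CD11b). Each subset lay above the one before without overlap, and the difference of CD11b from CD27 cells was 0.40 (95% interval 0.23 to 0.58, limma adjusted p = 0.00875). Itga2 read 12.77, 12.46 and 12.42 in WT CD27 cells and 13.02, 12.93 and 13.09 in CD11b cells, a difference of 0.46 (0.24 to 0.68, adjusted p = 0.0174). DP cells, whose arrays are given above, lay above CD27 cells and overlapped CD11b cells. Itga4 differed by 0.46 as well (0.21 to 0.71, adjusted p = 0.0361). The calls of Itga2 and Itga4 each depended on 4 of the 6 arrays left out in turn. The highest adjusted p was 0.0854 for Itga2 (without CD27 WT replicate 3) and 0.12 for Itga4 (without CD11b WT replicate 3). Without CD27 WT replicate 3, a low array for both genes, their differences were 0.40 and 0.29.

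Itgax followed a different course and was highest in DP cells of both genotypes. In WT it was higher in DP than in CD27 cells by 0.38 (-0.41 to 1.17, limma adjusted p = 0.903) and lower in CD11b than in DP cells by 0.83 (limma adjusted p = 0.561), and the WT arrays of adjacent subsets did not overlap. In KO the same steps were 0.84 (limma adjusted p = 0.869) and -1.06 (limma adjusted p = 0.388), and the KO arrays of adjacent subsets overlapped in both. With the replicate block both KO steps passed (adjusted p = 0.0273 and 0.00269), as did the step from DP to CD11b in WT (adjusted p = 0.00676). Itgax was the 1 chain of 9 that passed in each of these steps with the block, against 0.268%, 1.84% and 2.40% of all probe sets. The numbers were taken to pair these arrays because their deviations from the group means went together. By that rule DP and CD27 cells of WT were not taken as paired. Xist followed the number there too, at 5.69 and 5.32 in replicate 1 and 12.66 to 12.92 in replicates 2 and 3. With the block the WT step from CD27 to DP did not pass (limma adjusted p = 0.187). In KO the step from DP to CD11b passed without KO replicate 3 too (-1.04, adjusted p = 0.0448). Each of the 3 KO replicates rose from CD27 to DP and fell from DP to CD11b, replicate 3 at a level about 1 log2 unit lower, 10.15, 11.21 and 10.12. Itga1 went down towards CD11b cells, by 0.85 in WT (-1.97 to 0.26, adjusted p = 0.459) and by 1.23 in KO (-2.34 to -0.12, adjusted p = 0.318), and did not pass.

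In KO cells 0 of the 9 chains passed between CD11b and CD27 cells by limma (5 with an unadjusted p under 0.05), against 2.07% of all probe sets. The differences were 0.32 for Itgb2 (0.14 to 0.49, adjusted p = 0.0638), 0.38 for Itga2 (0.16 to 0.60, adjusted p = 0.0801) and 0.28 for Itga4 (0.03 to 0.53, adjusted p = 0.312). With the replicate block 3 passed, Itgb2 (adjusted p = 0.0142), Itga2 (0.026) and Itgal (0.24, adjusted p = 0.00914), against 6.17% of all probe sets. The interaction did not pass for any of them, so a smaller rise in KO than in WT cells was not shown. In the single steps and without the block, 0 of 9 chains passed between DP and CD27 or between CD11b and DP cells in either genotype, against 0.557% and 0.525% of all probe sets in WT and 0.0198% and 0.514% in KO. By limma, unadjusted p was under 0.05 for 3 and 4 of the 9 chains in the WT steps and for 2 and 2 in the KO steps.

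**Figure D3:**
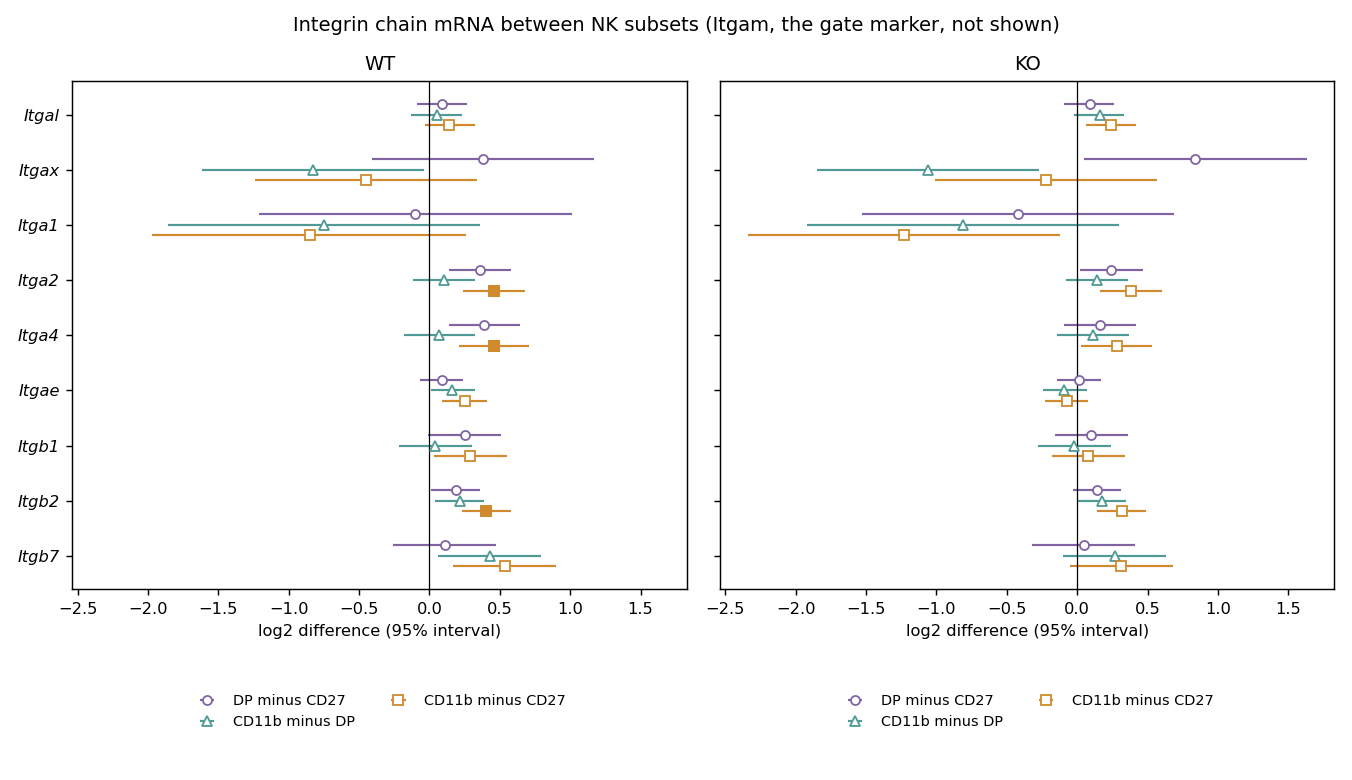
Differences between subsets (log2, x axis) for 9 integrin chains (y axis) in WT (left) and KO (right), with 95% intervals from limma. Filled symbols passed at an adjusted p under 0.05, which holds for Itgb2, Itga2 and Itga4 between CD11b and CD27 cells of WT. Itgax lies right of 0 for DP minus CD27 and left of 0 for CD11b minus DP in both genotypes.

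Of the 16 other integrin chains, 2 rose in KO cells in the average, Itgb3 and Itga6, 2 fell, Itgb4 and Itgav, and 12 did not pass. Of all probe sets 2.80% were higher and 5.28% lower in this comparison. Itgb4, the partner of the Itga6 chain in a laminin receptor, was the chain with the largest change. It read 8.04, 8.72 and 7.15 on WT CD11b arrays and 5.77, 5.56 and 5.36 on KO CD11b arrays, and lay between 5.27 and 6.06 on all arrays of CD27 and DP cells. In CD11b cells the KO-WT difference was -2.40 (95% interval -2.96 to -1.85, limma adjusted p = 0.000384). It passed with each of the 6 arrays left out (highest adjusted p 0.00222) and without KO replicate 3 (-2.30, 0.00452). In CD27 and DP cells it was 0.04 and -0.43 (limma adjusted p = 0.88 and 0.639). Itgb4 was the 1 chain of 16 that passed between genotypes in CD11b cells, against 1.29% of all probe sets. It rose by 2.61 from CD27 to CD11b cells of WT (limma adjusted p = 3.64e-05). In KO cells, whose CD27 arrays read 5.44, 5.32 and 5.42, the same difference was 0.17 (adjusted p = 0.86). The interaction passed (-2.44, 95% interval -3.23 to -1.66, limma adjusted p = 0.0426), but not in 10 of the 12 fits with 1 array left out (adjusted p up to 0.13, without CD27 KO replicate 1), nor without KO replicate 3 (0.182). Between CD11b and CD27 cells of WT, 1 of the 16 chains was higher and 1 lower, against 5.0% of all probe sets that passed. With the replicate block 2 were higher and 3 lower, against 10.9%. In KO 0 passed by limma (2 with an unadjusted p under 0.05), against 2.07% of all probe sets. With the block 1 was higher, Itga6, and 3 lower, Itga3, Itgad and Itgb3, against 6.17%.

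Itgb3, a beta chain that pairs with that of Itgav, was 2.05-fold higher in KO in the average (95% interval 1.65 to 2.55, limma adjusted p = 0.000703). Its DP arrays read 5.94, 5.88 and 5.95 in WT and 7.05, 6.92 and 6.97 in KO, without overlap. Its CD27 arrays overlapped, at 6.85, 7.53 and 6.46 in WT and 7.84, 7.45 and 8.36 in KO, and no single subset passed (limma adjusted p = 0.119, 0.117 and 0.0511 in CD27, DP and CD11b cells). Platelets carry Itgb3. The 5 measured erythroid and platelet genes, of 8 listed, summed to 7.86, 7.73 and 7.94 on the CD27, DP and CD11b arrays of KO replicate 3 and to 7.51 to 7.64 on WT arrays, and their part in the result was not tested. Itgav fell by 0.23 in the average (adjusted p = 0.0471) and Itga6 rose by 0.64 (adjusted p = 0.0416). Leaving out 1 array ended these calls in 14 and 12 of 18 cases (highest adjusted p 0.0999 and 0.0873, both without DP WT replicate 3). Itgav did not pass without KO replicate 3 (-0.13, adjusted p = 0.166). With 3 samples compared with 3, none of the 4 chains passed (adjusted p = 0.106 for Itgb3 and Itgb4, 0.41 for Itga6 and Itgav).

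Among 31 measured adaptors and activators of integrins, 1 rose and 5 fell in KO cells in the average, and 25 did not pass, against 2.80% higher and 5.28% lower among all probe sets. Vcl rose, which encodes vinculin, a linker of talin to actin. Its CD11b arrays lay between 8.90 and 9.17 in WT and between 9.63 and 10.21 in KO. It was 1.73-fold higher in the average (95% interval 1.49 to 2.01, limma adjusted p = 0.000304; without KO replicate 3 the difference was 0.72, adjusted p = 0.00342). The call of Vcl in CD11b cells (0.95, adjusted p = 0.014) was lost with 3 of 6 arrays left out, at most 0.0734 (without CD11b KO replicate 3). The genes that fell did so by 0.19 to 0.35: Skap1 and Fyb, adaptors between the antigen receptor and integrins, Ilk, the integrin-linked kinase, Vav1 and the integrin-associated protein Cd47. Without KO replicate 3, Ilk (adjusted p = 0.0984) and Vav1 (0.08) did not pass. None of the 6 passed with 3 samples compared with 3 (adjusted p = 0.136 for Vcl and 0.288 to 0.344 for the others). Talin (Tln1) and Fermt3 were not called between genotypes.

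From CD27 to CD11b cells of WT, 4 adaptors rose and 1 fell, against 5.0% of all probe sets that passed and 2.88% that were higher. With the replicate block, 5 were higher and 3 lower, against 10.9% of all probe sets, among them the 5 of the fit without it. In KO cells 1 was higher and 1 lower, and 5 and 3 with the block, against 2.07% and 6.17% of all probe sets. Flna, which encodes filamin A, an actin crosslinker that binds beta chain tails, rose by 0.62 (limma adjusted p = 0.00377), the GTPase gene Rap1b by 0.49 (adjusted p = 0.00145), Ilk by 0.41 (adjusted p = 0.021) and Tln1 by 0.31 (adjusted p = 0.0417). Skap1 fell by 0.78 (adjusted p = 0.00209), from 11.35, 11.24 and 11.36 to 10.56, 10.51 and 10.53. Tln1 lost its call with any of the 6 arrays left out (adjusted p up to 0.153, without CD27 WT replicate 2) and Ilk with 4 of them (up to 0.0921, without CD11b WT replicate 3). Rap1b (0.33, adjusted p = 0.0391) and Skap1 (-0.62, adjusted p = 0.0196) passed in KO cells too, and both lost the call with 1 array left out (up to 0.144 without CD27 KO replicate 3 and 0.0948 without CD27 KO replicate 1). Of the 11 measured integrin ligands, Icam1, the ligand of LFA-1, fell by 0.26 in KO cells in the average (limma adjusted p = 0.00745, or 0.295 with 3 samples compared with 3), and 10 did not pass. Of all probe sets 2.80% were higher and 5.28% lower in that comparison. Between subsets 0 of the 11 ligands passed by limma, against 0.0198% to 5.0% of all probe sets over these comparisons. With the replicate block Icam1 did so between CD11b and CD27 cells of WT (0.17, limma adjusted p = 0.0312), against 10.9% of all probe sets.

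**Figure D4:**
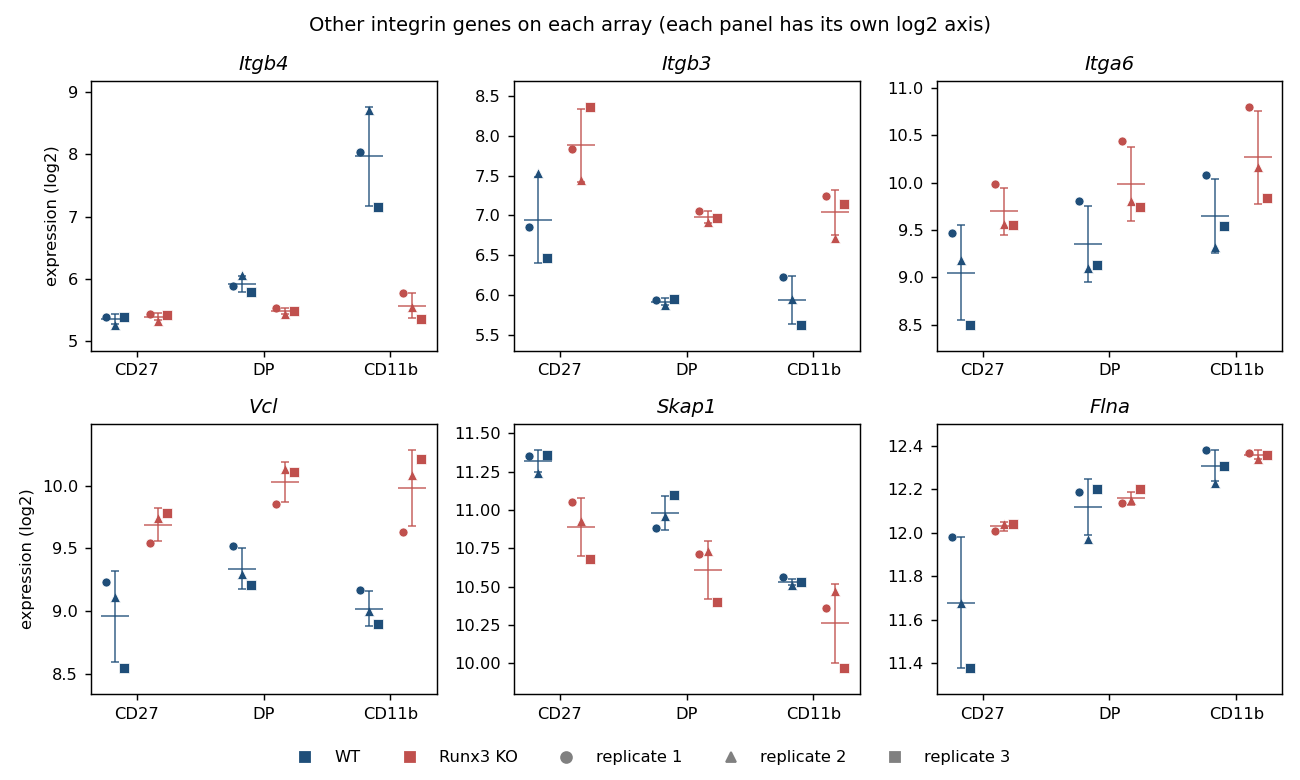
Expression (log2, y axis, scaled separately for each gene) of other integrin chains and adaptors on each array, by sorted subset (x axis). Points are arrays and bars the mean and SD of 3 arrays. WT CD11b arrays of Itgb4 lie between 7.15 and 8.72 and all other arrays of this gene at 6.06 or below.

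Markers of other lymphocytes differed between the same groups. The 8 T cell genes had a summed log2 level of 12.80 to 13.04 on WT and 11.85 to 12.47 on KO CD27 arrays, and of 10.15 to 11.04 and 10.49 to 10.79 on CD11b arrays. Cd3g made up a large part of this sum, at 12.23 to 12.62 on WT and 11.48 to 12.24 on KO CD27 arrays. In CD27 cells 2 of the 8 were lower in KO, Cd3e and Cd3d, and 0 higher, against 0.907% of all probe sets. The 8 differences there ran from -3.00 to 1.21, so the genes did not move together. All 8 ILC1 markers other than Itga1 fell from CD27 to CD11b cells of both genotypes, with a median of -2.76 in WT and -1.80 in KO. Of all probe sets 5.0% in WT and 2.07% in KO passed there in either direction. The 8 NK cell markers had a summed level of 15.65 to 16.14 on all arrays. In the average over subsets 1 of them rose and 1 fell in KO cells, against 2.80% and 5.28% of all probe sets. T cells carry Itga4, Itgb1, Itgb7 and Itgal as well, and the part of these markers in the results on those chains was not tested.

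For each chain the genes with the most similar pattern were taken as those with the highest Pearson's r over the 18 arrays among 19937 other genes, as a description, since arrays of one group share subset and genotype. Itgb7 was closest to Tsc22d3 (r = 0.941) and Lpcat1 (0.921), and Itga4 to Gramd4 (0.907) and Tmem184b (0.9). Itgax was closest to Ezr (0.917), which encodes the membrane linker ezrin, and to Gatad2a (0.905). Itgam was closest to Edem3 (0.938) and the interleukin-12 receptor gene Il12rb2 (0.912). The highest values were those of Itgb2 with Septin11 (0.965) and Aoah (0.963) and of Itga2 with Mfhas1 (0.961) and Fbxo31 (0.954). Itgb1 was closest to Cnst and Rasgrp2 (both 0.91), the latter an activator of Rap1 and on the list of integrin activators. Itgal was closest to Ndfip2 (0.888) and Dok2 (0.883), Itga1 to Hipk1 (0.911) and Trp53i11 (0.902), and Itgae, near the low end of the signal, to Dclk3 (0.86) and Dph3 (0.821). Over the 6 group means these values of r ranged from 0.887 to 0.993.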

How the data were processed

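Total RNA of sorted splenic NK cells was amplified and hybridised to Affymetrix whole-transcript arrays, per the labels' protocols. The authors deposited log2 values per probe set, made with RMA and Partek per the submitters' processing notes, which give no versions. That the scale is log2 was inferred from their range. No filter was applied to them.

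A model with a mean for each of the 6 groups was fitted with limma 3.58.1 (lmFit and eBayes, R 4.3.3), leaving 12 residual and 2.18 prior degrees of freedom. P-values were two-sided, with Benjamini-Hochberg adjustment across the 35399 probe sets. Intervals are 95% intervals from the moderated SE. The procedure was run on simulated data in which all arrays varied independently. That run cannot show how it behaves where arrays with one replicate number deviate together, as they did here. An exact permutation test could not pass here, its smallest two-sided p at this group size being 0.1. The labels do not state which arrays share animals, so p-values measure a spread that may be partly technical.

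The 10 genes and the lists (16 other integrin chains; 32 adaptors and activators, Ptk2 without a probe set of its own; 12 ligands, Spp1 likewise; and 8 lists of cell type markers) were chosen with earlier results of these data known. Named beyond the 10 genes are Runx3, Ncr1, up to 4 list members with the largest changes among those that passed, further members of the integrin lists that passed, and the 2 most similar genes per chain. Lyz2, Eif2s3y, Tln1 and Fermt3 between genotypes, and the lists' summed levels, were added after their values were seen. All 10 symbols equal those of their gene identifiers in RefSeq.

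Arrays with one replicate number deviated together from their group means within KO (r = 0.213 to 0.642 over 9 pairs) and, within WT, between CD27 and CD11b (0.218 to 0.324) and between DP and CD11b cells (0.248 to 0.456). They did not in every pair of WT CD27 and DP cells (-0.00943 to 0.44) or between genotypes (-0.0726 to 0.344 over 27 pairs). The numbers were taken to pair arrays in the comparisons where all 3 pairs exceeded 0.1, and the block is given beside those results. Xist, which was low or high by number alike in every subset, was not used in this rule.

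Alternatives were cyclic loess, array weights, a robust prior with an intensity trend (statmod 1.5.0), only the probe sets whose mean exceeded the median, the compared groups alone, the replicate number as a block, each array left out in turn, KO replicate 3 left out, and 3 samples against 3. Xist as a covariate was chosen after seeing the data. Its value was at most 5.69 where it was low and at least 12.48 where it was high.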

Additional observations from a re-analysis of the deposited data

How the results depend on the processing

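The counts of integrin chains that passed moved with the processing as follows. In the comparison of KO with WT in CD27 cells, 1 chain passed in the report, 2 passed after cyclic loess, with probe sets above the median mean, with the replicate block and with Xist as a covariate, 3 with array weights and 0 with the compared groups alone, with 0 to 2 when 1 array was left out. In CD11b cells 0 passed in the report and 1, Itgax, with Xist as a covariate. In the average over subsets 4 passed in the report, 0 with the arrays of a sample averaged first, 3 after cyclic loess, 3 without KO replicate 3, and 3 to 4 with 1 array left out. With Xist as a covariate Itga2 passed in addition. Between CD11b and CD27 cells of WT, 3 passed in the report, 5 with array weights, 7 with the replicate block, 1 with the compared groups alone, 4 without KO replicate 3 and 1 to 4 with 1 array left out. The same comparison in KO had 0 in the report, 1 after cyclic loess, 1 with the intensity trend, 2 with array weights, 3 with the replicate block and 0 to 1 with 1 array left out. Between CD11b and DP cells, 0 passed in the report and 1, Itgax, both with the replicate block and without KO replicate 3, in WT and in KO, and between DP and CD27 cells of KO 1, Itgax, with the replicate block. In the interaction tests 0 of 10 passed under each alternative run. Over all probe sets, the counts that passed in CD27 cells (321 in the report) were 3974 with array weights and 14 with the compared groups alone, and in the average (2862) 71 with samples averaged first. Of 1551 differences of single chains recomputed under an alternative, 1485 kept their side of the threshold, 34 lost and 32 gained a call, and 0 changed sign while called in either fit. Among those that never passed, 65 changed sign. For KO-WT differences the block joined WT and KO arrays of one number, although the numbers were not taken to pair arrays between genotypes. With this block no KO-WT difference of a chain other than Itgb7 in CD27 cells (0.75, limma adjusted p = 0.0333) changed its call. That gain therefore does not rest on a pairing seen in the data. Between DP and CD27 cells of WT, where the numbers were not taken to pair the arrays, the block changed no call. A second probe set per gene could not be tried, as each chain has 1. With 3 arrays a group, of Itga1 only large changes were detectable, its KO-WT intervals spanning -1.80 to 0.79, and Itgae is limited by its low signal.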
